A study of Mus musculus with 16 samples.

Results

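The 8 genes described here encode transcription factors that set and keep hepatocyte identity: the forkhead proteins Foxa1, Foxa2 and Foxa3, the nuclear receptors Hnf4a, Nr1h4 and Nr5a2, and the homeobox proteins Prox1 and Onecut1. They were taken by gene name from the array, where they are 8 of 30214 names and have 11 probes. The samples were 16 one-colour arrays of RNA from AML12 cells, a line of non-tumourigenic mouse hepatocytes that was set up from mice carrying a transgene for human transforming growth factor alpha. Cells carried a doxycycline-inducible lentiviral shRNA, either scramble or against eIF6, were selected in puromycin, and received doxycycline for 48 h and insulin for 1 h (given as 100 nM in the sample description and as 100 mM in the treatment protocol). Lysates were separated on sucrose gradients into subpolysomal RNA (free and with single ribosomes) and polysomal RNA (with several ribosomes). This gave 4 groups of 4 arrays: scramble subpolysomal, scramble polysomal, eIF6 shRNA subpolysomal and eIF6 shRNA polysomal. All groups had doxycycline and insulin, so neither agent was compared here. The methods name biological quadruplicates and the labels only number the arrays, and whether replicates came from separate infections is not given in the sources used here, so p-values measure the spread between these arrays only.

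Hepatocyte identity rests on a network in which these factors bind the promoters and enhancers of liver genes and of each other. Foxa proteins open compacted chromatin early in liver development. Hnf4a drives a large share of the genes that mature hepatocytes use for lipid, drug and plasma protein metabolism. Nr1h4 (FXR) is the bile acid receptor, Nr5a2 (LRH-1) acts on bile acid and cholesterol genes, Prox1 is needed for the spread of hepatoblasts and acts as a corepressor, and Onecut1 (HNF6) takes part in bile duct and hepatocyte development and is known to bind the promoters of Hnf4a and Foxa2. eIF6 binds the large ribosomal subunit and keeps it apart from the small one, and the study asked how the loading of mRNAs on polysomes in insulin-treated hepatocytes depends on it.

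Each array had 20177 to 24953 of 39429 probes well above background (the mark of the scanner software for a signal that exceeds its local background), and no spot was saturated. Signals are given on the log2 scale after quantile normalization over the 16 arrays, and levels of different probes cannot be set against each other. The targeted gene, Eif6, lay between 12.94 and 12.96 on the 4 scramble polysomal arrays and between 11.81 and 12.00 on the 4 eIF6 shRNA polysomal arrays, a fall of 1.05 ± 0.08 (SE, limma, adjusted p = 1.45e-07). In the subpolysomal RNA the Eif6 difference was 0.02 (95% interval -0.15 to 0.18, adjusted p = 0.917). Each of the 4 slides held 1 array of every group, so slide and group were not confounded.

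Detection came first. Hnf4a, Foxa1, Foxa2, Foxa3, Nr1h4 and Onecut1 were well above background on all 16 arrays, Foxa2 and Onecut1 with both of their probes. Prox1 was well above background on 4 of 4 scramble polysomal and 4 of 4 eIF6 shRNA polysomal arrays, but on 0 of 4 scramble subpolysomal and 1 of 4 eIF6 shRNA subpolysomal arrays. Nr5a2 had a probe (A_51_P514449) that passed on 2 of 4 scramble subpolysomal arrays and on every array of the other 3 groups. Its second probe (A_55_P2142908) passed on 2 of 4 scramble subpolysomal arrays and on 1 of 4 in each other group. A probe was kept if 2 or more arrays of any group had it well above background, which all 11 probes met, so all 8 genes were tested.

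**Figure D1:**
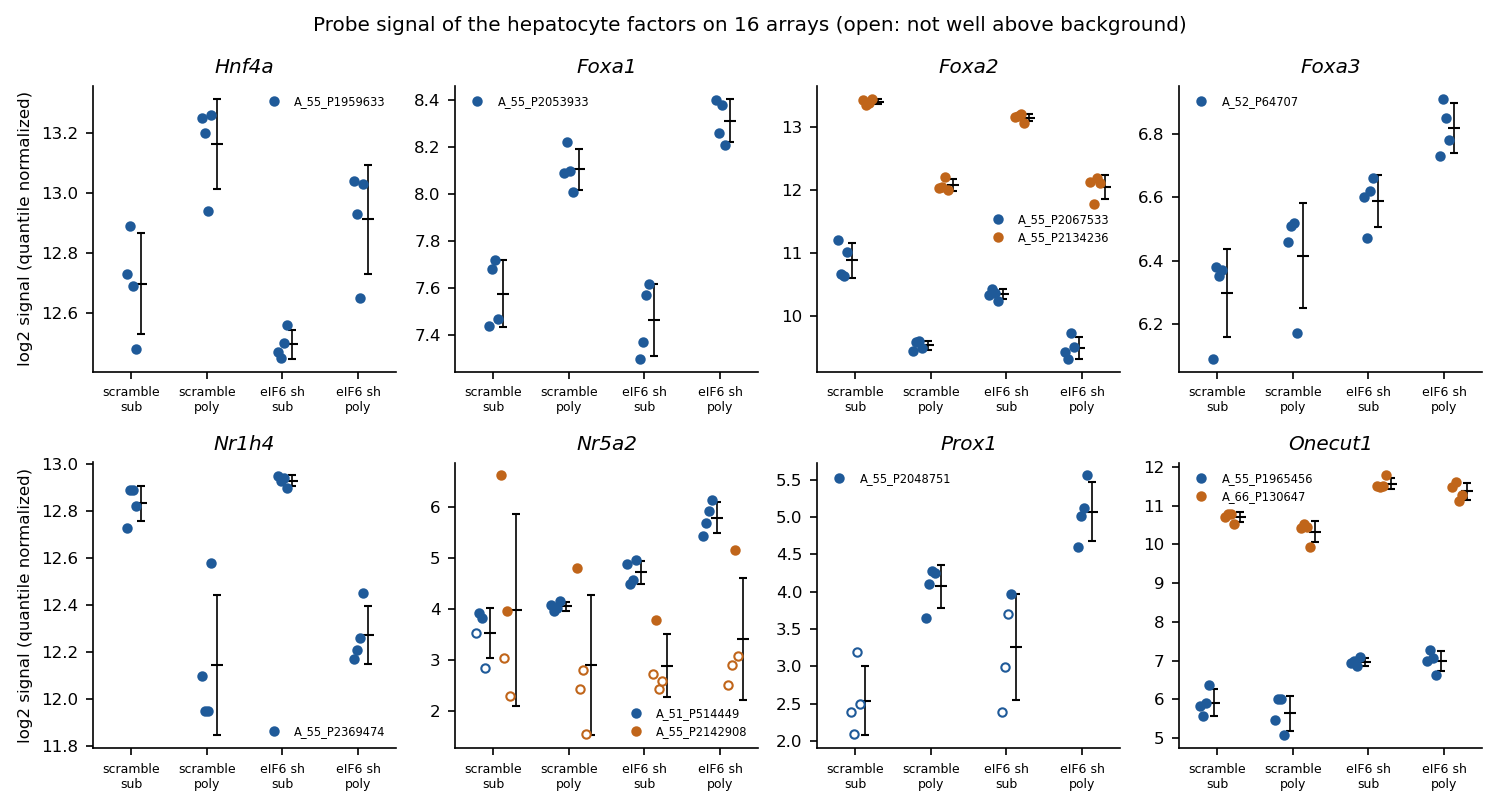
Quantile-normalized log2 signal (y axis, a separate range per panel) of each probe of the 8 factors on the 4 arrays of each group (x axis). Filled points were well above background and open points were not, and bars give the mean and SD of the 4 arrays. Onecut1 and the Nr5a2 probe A_51_P514449 lie higher in eIF6 shRNA cells in both fractions, with no overlap between scramble and eIF6 shRNA arrays of a fraction.

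With eIF6 shRNA, 3 of the 8 factors rose on polysomes (Onecut1, Prox1 and Foxa3) and none fell, against 11.1% of the 19365 genes tested that rose and 10.7% that fell. In the subpolysomal RNA 2 rose (Onecut1 and Foxa3) and 1 fell (Foxa2), against 11.9% and 12.4% of all genes. The median difference over the 8 factors was 0.30 on polysomes and 0.08 in subpolysomal RNA, beside 0.02 and 0.02 over all genes. Under quantile normalization these differences are relative to the other mRNAs of the same fraction. The paper reports fewer polysomes relative to single ribosomes in insulin-treated eIF6 shRNA cells. A rise on polysomes here therefore need not be a larger amount of the mRNA on polysomes. Onecut1 had the largest difference among the factors called on the mean of their probes, in either fraction. In bulk RNA of this kind, fewer cells that express a gene and less RNA per cell cannot be told apart.

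Among the forkhead factors, Foxa3 read 6.46, 6.51, 6.52 and 6.17 on the scramble polysomal arrays and 6.73, 6.91, 6.85 and 6.78 on the eIF6 shRNA polysomal arrays. All 4 eIF6 shRNA arrays lay above all 4 scramble arrays, and the rise was 0.40 ± 0.10 (SE), or 1.32-fold (limma, adjusted p = 0.00699). In the subpolysomal RNA Foxa3 read 6.09, 6.38, 6.35 and 6.37 in scramble cells and 6.60, 6.47, 6.62 and 6.66 in eIF6 shRNA cells, again without overlap, a rise of 0.29 ± 0.10 (adjusted p = 0.0381). With slide as a block the adjusted p was 0.0163 on polysomes and 0.0589 in subpolysomal RNA, and within slides the differences ran from 0.20 to 0.74 and from 0.10 to 0.57. The subpolysomal call was lost without scramble subpolysomal array 1 (0.23, adjusted p = 0.121) or array 3 (adjusted p = 0.0581) and without eIF6 shRNA subpolysomal array 1, 3 or 4 (adjusted p = 0.0788, 0.0827 and 0.0875). Scaled to spike-in probes, Foxa3 differences turned to -0.07 and -0.04, where the medians of all genes were -0.47 and -0.23, so that relative to the median Foxa3 was 0.41 and 0.18 higher.

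Foxa2, the forkhead factor of endoderm, has a pair of probes that overlap by 5 bases on chromosome 2 (mm9, minus strand). The end of the upstream probe and the start of the downstream one are shown because both report nearly the same stretch of the transcript, with the shared bases in capitals.
Foxa2 A_55_P2134236, last 30 bases, chr2:147868669-147868698: gctttatttatggcttataaatgtgTGTTC
Foxa2 A_55_P2067533, first 30 bases, chr2:147868644-147868673: TGTTCtggctagaatggccagaattccaca

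The mean of both Foxa2 probes was 12.32, 12.01, 12.00 and 12.23 in scramble subpolysomal RNA and 11.74, 11.80, 11.79 and 11.65 in eIF6 shRNA subpolysomal RNA. No eIF6 shRNA array reached the lowest scramble array, and Foxa2 fell by 0.40 ± 0.10 (SE), 1.32-fold lower (limma, adjusted p = 0.00897). Within slides the difference ran from -0.67 to -0.22. The probe A_55_P2067533 fell by 0.54 (adjusted p = 0.00563), and A_55_P2134236 differed by -0.25 and missed the threshold (adjusted p = 0.0605). On polysomes Foxa2 read 10.74 to 10.91 in scramble and 10.55 to 10.96 in eIF6 shRNA cells, with a difference of -0.03 (95% interval -0.24 to 0.18, adjusted p = 0.89). Foxa1, the third forkhead factor, differed by 0.21 on polysomes (95% interval 0 to 0.41, adjusted p = 0.157) and by -0.11 in subpolysomal RNA (95% interval -0.32 to 0.09, adjusted p = 0.446).

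Among the nuclear receptors, Hnf4a differed by -0.25 on polysomes (95% interval -0.49 to -0.02, adjusted p = 0.126) and by -0.21 in subpolysomal RNA (95% interval -0.44 to 0.03, adjusted p = 0.196). Its scramble polysomal arrays read 13.25, 13.20, 12.94 and 13.26 and its eIF6 shRNA polysomal arrays 13.04, 12.93, 12.65 and 13.03, so the ranges overlapped. Nr1h4 differed by 0.13 on polysomes (95% interval -0.13 to 0.38, adjusted p = 0.541) and by 0.10 in subpolysomal RNA (95% interval -0.16 to 0.36, adjusted p = 0.604). Scramble polysomal array 4 read 12.58 for Nr1h4 while the other 3 lay between 11.95 and 12.10, and without it the polysomal difference was 0.27 (adjusted p = 0.0258).

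The call on Nr5a2, like that on Foxa2 in subpolysomal RNA, differed between its probes. They start 809 bases apart on chromosome 1 (mm9, minus strand), and their first 30 bases are shown because they read separate stretches of the transcript.
Nr5a2 A_51_P514449, chr1:138740933-138740962: atgcaaagacagtgattctgcatatggcct
Nr5a2 A_55_P2142908, chr1:138741742-138741771: gatggagaccaataccacagcagaataaaa

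Probe A_51_P514449 read 4.07, 3.96, 4.02 and 4.15 on the scramble polysomal arrays and 5.43, 5.69, 5.93 and 6.14 on the eIF6 shRNA polysomal arrays. The groups did not overlap, and in a fit over all kept probes, added after the values were seen, it rose by 1.75 ± 0.21 (SE), 3.36-fold (limma, adjusted p = 2.1e-05). In subpolysomal RNA it read 3.53, 3.92, 3.82 and 2.83 in scramble cells, where the first and the last were not well above background, and 4.88, 4.49, 4.58 and 4.96 in eIF6 shRNA cells, a rise of 1.20 ± 0.21 (adjusted p = 0.000771). Probe A_55_P2142908 scattered from 1.54 to 4.80 on the scramble polysomal arrays and from 2.50 to 5.17 on the eIF6 shRNA polysomal arrays, 3 of 4 of each not well above background, and differed by 0.52 ± 0.88 (adjusted p = 0.762). With both averaged, as the rule for genes required, Nr5a2 differed by 1.13 ± 0.47 on polysomes (adjusted p = 0.109) and by 0.05 ± 0.47 in subpolysomal RNA (adjusted p = 0.953), and neither was called. Leaving out scramble subpolysomal array 1 or 3 removed the dim probe through the filter, and the polysomal difference was then 1.76 with either left out (adjusted p = 3.88e-05 and 2.74e-05) and the subpolysomal difference 1.20 and 1.30 (adjusted p = 0.00255 and 0.001). Both were also called when the filter asked for detection on 4 arrays in any group instead of 2 (1.79 and 1.18, adjusted p = 6.03e-06 and 0.000471) and with the brightest probe, and with normexp background correction the polysomal difference alone was called (0.34, adjusted p = 0.0352).

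Among the homeobox factors, Prox1 read 3.65, 4.11, 4.28 and 4.25 on the scramble polysomal arrays and 4.60, 5.01, 5.12 and 5.56 on the eIF6 shRNA polysomal arrays. The groups did not overlap, and Prox1 rose by 1.00 ± 0.32 (SE), 2.01-fold (limma, adjusted p = 0.0374). Within slides the difference ran from 0.32 to 1.92. Under other processing settings it ran from 0.28 to 1.08, so its size depended on the processing. This call rested on single arrays: the adjusted p was 0.112, 0.0705 and 0.0509 without scramble polysomal array 1, 2 or 3, and 0.0644, 0.0789 and 0.102 without eIF6 shRNA polysomal array 2, 3 or 4. In subpolysomal RNA, where Prox1 was well above background on 1 of 8 arrays, it read 2.38, 2.09, 3.19 and 2.50 in scramble and 2.39, 2.99, 3.70 and 3.97 in eIF6 shRNA cells. These ranges overlapped and no fold is given, since no scramble array and 1 eIF6 shRNA array measured it (adjusted p = 0.121, and 0.0255 without eIF6 shRNA subpolysomal array 1).

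Onecut1 has a pair of probes 26481 bases apart on chromosome 9 (mm9, plus strand). The array annotation assigns A_66_P130647, the brighter probe, to an Ensembl transcript and A_55_P1965456 to a RefSeq transcript. The first 30 bases of each probe are shown because both probes rose, and the mean of both had the largest called rise among the values per gene.
Onecut1 A_66_P130647, chr9:74737402-74737431: atgagggaggaagaaccacggactagtacc
Onecut1 A_55_P1965456, chr9:74710921-74710950: cttcggtgaccggcgcgcaggtcagcaatg

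The mean of both Onecut1 probes was 7.94, 8.27, 8.23 and 7.50 on the scramble polysomal arrays and 9.24, 9.45, 9.09 and 8.95 on the eIF6 shRNA polysomal arrays. Every eIF6 shRNA array lay above every scramble array, and Onecut1 rose by 1.20 ± 0.15 (SE), 2.29-fold (limma, adjusted p = 3.47e-05). In subpolysomal RNA it read 8.27, 8.17, 8.35 and 8.46 in scramble and 9.23, 9.23, 9.18 and 9.43 in eIF6 shRNA cells, again apart, a rise of 0.95 ± 0.15, 1.94-fold (adjusted p = 0.000352). The probes A_66_P130647 and A_55_P1965456 each rose on polysomes, by 1.04 (adjusted p = 5.71e-05) and 1.36 (adjusted p = 0.000262), and in subpolysomal RNA, by 0.86 (adjusted p = 0.000368) and 1.04 (adjusted p = 0.00249). Within slides the Onecut1 difference ran from 0.83 to 1.94 on polysomes and from 0.77 to 1.16 in subpolysomal RNA. Both calls held with each of the 16 arrays left out in turn and were lost only under spike-in scaling, where the differences were 0.79 (adjusted p = 0.575) and 0.61 (adjusted p = 0.999).

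**Figure D2:**
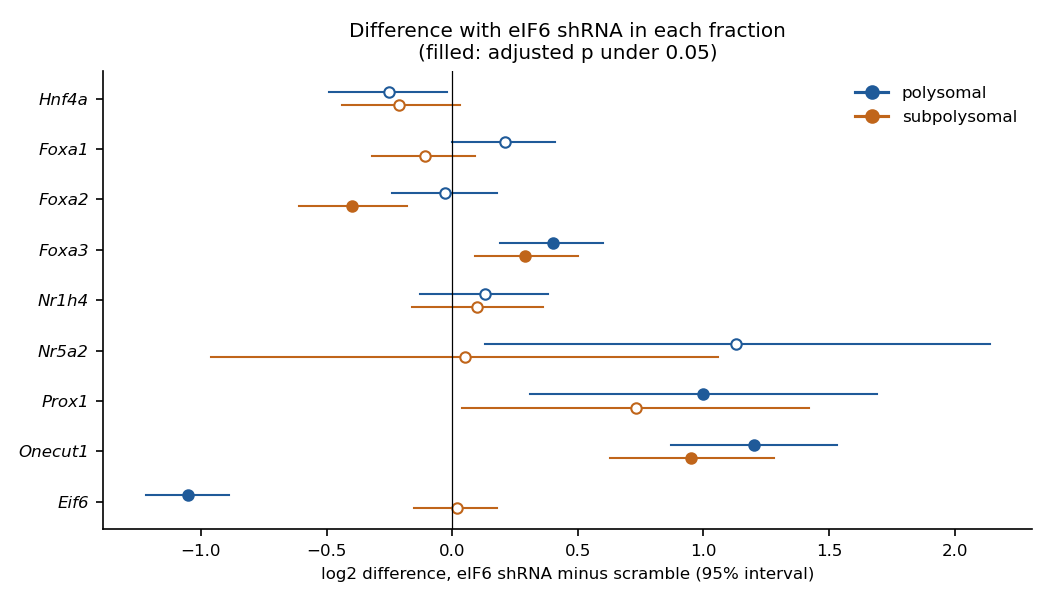
Log2 difference, eIF6 shRNA minus scramble (x axis), with its 95% interval for each factor and Eif6 (y axis), for polysomal and subpolysomal RNA. Filled points passed an adjusted p of 0.05. Onecut1 stands at 1.20 and 0.95 and Eif6 at -1.05 and 0.02, and the wide Nr5a2 intervals are those of the mean of its probes.

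The promoter sequences of the 8 factors were read for motifs because these proteins bind each other's genes. RefSeq promoter windows (GRCm38.p6, 250 bases before to 50 after a start site) were given for all 8 genes, 13 of 32851 windows. The letters ATTGAT, the core bound by Onecut proteins, were in 7.54% of all windows on either strand and in 2 windows of the factors, those of Foxa2 and Hnf4a. TGTTTAC, the core bound by Foxa proteins, was in 3.65% of all windows and in 1 of Foxa1, and CAAAGTCCA, a sequence bound by Hnf4a, was in 0.475% of windows and in none of these 13. The 30 bases around each match are shown with the matched letters in capitals, and for Hnf4a and Foxa1 the match is on the opposite strand.
Foxa2 promoter, chr2:148047165-148047194, minus strand: acaaggcccattATTGATtttttttctcct
Hnf4a promoter, chr2:163506786-163506815, plus strand: gtgattagaagaATCAATaagataaccggg
Foxa1 promoter, chr12:57546234-57546263, minus strand: tatactgctttGTAAACAaagtgagggcca

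Translational efficiency was taken as the polysomal difference minus the subpolysomal difference, the test of whether eIF6 shRNA moved both fractions unequally. It was called for none of the 8 factors, against 0.403% of all genes called higher and 1.11% called lower. No alternative run called any of the 8. An unadjusted p under 0.05 in the limma model was found for 2 of the 8. The share of all genes at that unadjusted threshold was not taken, so this count cannot be set against the shares above. The 2 were Foxa2 (0.37, 95% interval 0.07 to 0.67, adjusted p = 0.273) and Foxa1 (0.32, 95% interval 0.03 to 0.61, adjusted p = 0.343). Onecut1 had 0.24 (95% interval -0.22 to 0.71), Foxa3 0.11 (-0.19 to 0.40), Nr1h4 0.03 (-0.34 to 0.39) and Hnf4a -0.05 (-0.38 to 0.28). For Prox1 and Nr5a2 the intervals, -0.70 to 1.25 and -0.35 to 2.51, were too wide to place the value, and the Prox1 subpolysomal values were mostly not well above background. Eif6 had -1.07 ± 0.11 (adjusted p = 0.000145).

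The factors differed in how they were spread over the fractions. In scramble cells Foxa1, Hnf4a and Prox1 were higher in polysomal than in subpolysomal RNA and Foxa2 and Nr1h4 were lower, 3 and 2 of 8 factors against 31.7% and 28.4% of all genes. The same 5 factors were called in the same direction in eIF6 shRNA cells, against 32.1% of genes higher and 28.7% lower. These counts lie near the shares of all genes. Among the 5, Prox1 was kept through its polysomal arrays alone, and its calls between fractions say little beyond detection. Under quantile normalization the values between fractions are relative to the other mRNAs of the same fraction. Before it, the median log2 signal of an array was 3.98 to 4.49 in subpolysomal and 4.87 to 5.83 in polysomal RNA.

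Foxa2 read 12.00 to 12.32 in scramble subpolysomal and 10.74 to 10.91 in scramble polysomal RNA, a difference of -1.34 ± 0.10 (SE, limma, adjusted p = 3.14e-08), and of -0.97 ± 0.10 in eIF6 shRNA cells (adjusted p = 9.16e-07). Nr1h4 differed by -0.69 ± 0.12 (adjusted p = 0.000164) and -0.66 ± 0.12 (adjusted p = 0.000236). Both turned positive with spike-in scaling (0.53 and 0.69 for Foxa2, 1.28 and 1.07 for Nr1h4) and with separate normalization of both fractions (0.42 and 0.78, 1.15 and 1.17), where the medians of all genes were 1.52 and 1.30, and 1.38 and 1.41. Relative to those medians Foxa2 stayed lower, by 0.62 to 0.99 on the log2 scale, and Nr1h4 by 0.24 to 0.25.

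Hnf4a was 0.46 ± 0.11 higher on polysomes in scramble cells (adjusted p = 0.00188) and 0.42 ± 0.11 higher in eIF6 shRNA cells (adjusted p = 0.00393). Foxa1 was 0.53 ± 0.10 higher (adjusted p = 0.000243) and 0.85 ± 0.10 higher (adjusted p = 2.77e-06). Prox1, well above background on no scramble subpolysomal array, was at least 1.56-fold higher on scramble polysomes (adjusted p = 0.000812), a bound set by the dimmest probes well above background on those arrays. That p comes from subpolysomal values that were not measured above background, of a probe that was kept through its polysomal arrays, so the Prox1 calls between fractions say little beyond detection. In eIF6 shRNA cells Prox1 read 4.60 to 5.56 on polysomes and 2.39 to 3.97 in subpolysomal RNA, where 1 of 4 arrays had it well above background, and no size of the difference is given. With the 75th percentile as the scale the scramble call on Prox1 was lost (adjusted p = 0.0525). Foxa3, Onecut1 and Nr5a2 differed by 0.12, -0.33 and -0.28 in scramble cells and by 0.23, -0.08 and 0.80 in eIF6 shRNA cells, and none passed the threshold. Onecut1 in scramble cells did pass it with the 75th percentile (-0.61, adjusted p = 0.00531), with its brightest probe (-0.37, adjusted p = 0.0296) and without scramble polysomal array 2 or 3 (-0.42 and -0.41, adjusted p = 0.0354 and 0.0424). The Nr5a2 probe A_51_P514449 alone passed it, with 0.52 (adjusted p = 0.0439) and 1.07 (adjusted p = 0.000486). The paralogs Foxa1 and Foxa2 lay on opposite sides of the median of all genes under each of the 4 scalings, while the sign of the Foxa2 value itself turned under the scalings named above.

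**Figure D3:**
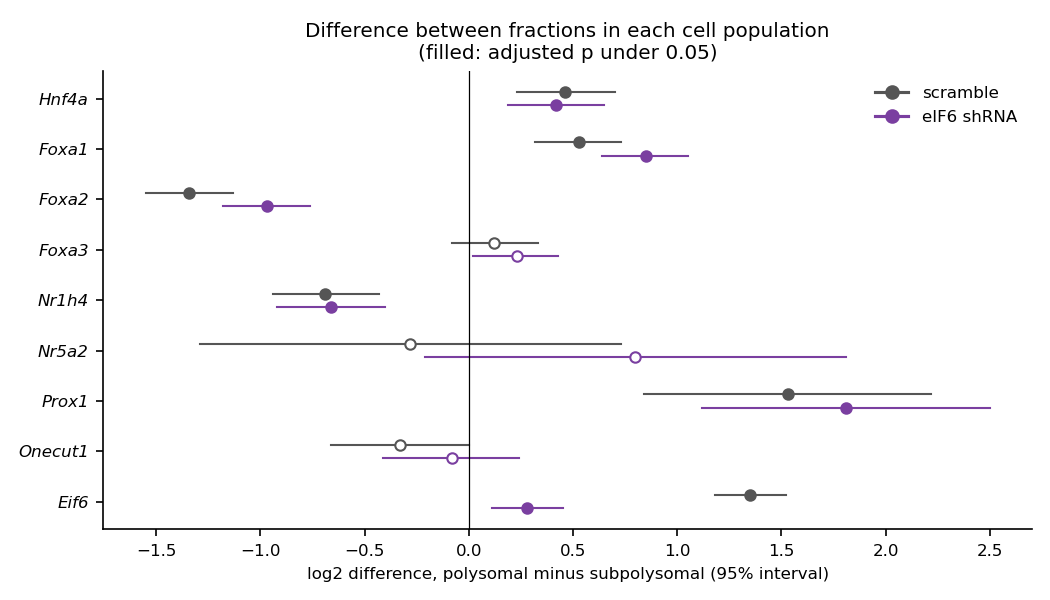
Log2 difference, polysomal minus subpolysomal (x axis), with its 95% interval for each factor and Eif6 (y axis), in scramble and eIF6 shRNA cells. Filled points passed an adjusted p of 0.05. Foxa2 lies at -1.34 and -0.97 and Foxa1 at 0.53 and 0.85 under quantile normalization, while with spike-in scaling or separate normalization of the fractions the Foxa2 and Nr1h4 values turn positive. The Prox1 points rest on subpolysomal values mostly not well above background.

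**Figure D4:**
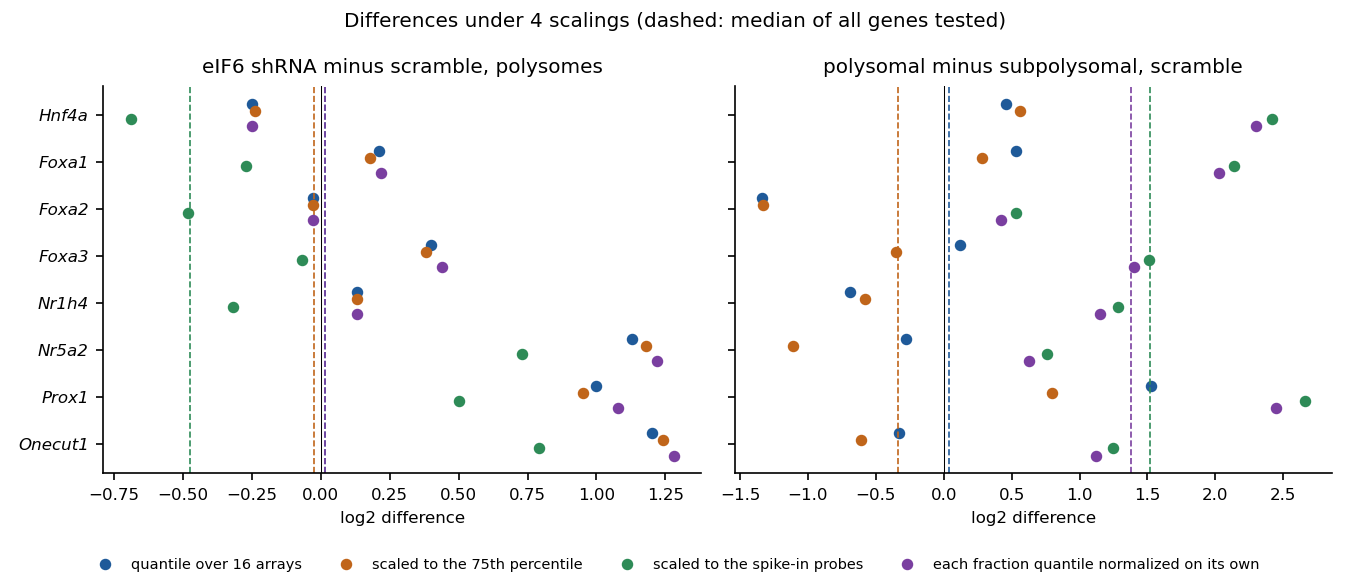
Log2 difference (x axis) of each factor (y axis) under 4 scalings, for eIF6 shRNA minus scramble on polysomes and for polysomal minus subpolysomal in scramble cells, with the median of all genes under each scaling as a dashed line. Spike-in scaling moved the median of all genes to -0.47 in the first comparison and to 1.52 in the second, and the factors moved with it.

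The other liver transcription factors gave the surroundings of these changes. Of 19 on the list, 18 were kept, and with eIF6 shRNA 5 rose and 3 fell on polysomes, 2 rose and 3 fell in subpolysomal RNA, with a median polysomal difference of 0.19. Over all genes tested 11.1% rose and 10.7% fell on polysomes, and 11.9% and 12.4% in subpolysomal RNA. The counts of this and of the following lists are to be read beside these shares, and the subpolysomal counts of this list lie near them. Cebpa, the C/EBP factor of mature hepatocytes, rose by 0.86 (adjusted p = 0.000156) from 7.44 ± 0.14 to 8.30 ± 0.27 (SD, n = 4). Gata4, Hhex and Ppara were among the others that rose on polysomes, by 0.59, 0.45 and 0.27 (adjusted p = 0.0163, 0.0129 and 0.0302). Tbx3 fell by 1.75 (adjusted p = 2.26e-05) from 6.94 ± 0.21 to 5.18 ± 0.19, and Creb3l3, a membrane-bound factor of lipid metabolism, by 1.39 (adjusted p = 4.86e-05) from 5.84 ± 0.23 to 4.45 ± 0.30. Nr1i2 (PXR) was also called lower (limma, adjusted p = 0.00185), but was well above background on 3 of 4 scramble and 0 of 4 eIF6 shRNA polysomal arrays. Its probe was kept through the scramble polysomal arrays alone, so this call says little beyond detection. Of 11 coregulators, 2 rose on polysomes, with a median difference of 0.17: Ppargc1a (PGC-1alpha), a coactivator of Hnf4a, by 1.99 as the mean of its probes (adjusted p = 1.4e-05), and Ncor1, a corepressor, by 0.35 (adjusted p = 0.00457), which became -0.11 with spike-in scaling and 0.17 (adjusted p = 0.18) with its brightest probe. The Ppargc1a probe A_55_P2011702 was well above background on 3 of 4 eIF6 shRNA polysomal arrays and on no scramble polysomal array. It was kept through the eIF6 shRNA polysomal arrays, so its part in the Ppargc1a mean says little beyond detection. The brighter Ppargc1a probe alone rose by 1.72 (adjusted p = 8.78e-05), and with normexp background correction the gene rose by 0.65 (adjusted p = 3.08e-05). Crebbp and Ncoa1 differed by 0.29 (adjusted p = 0.281) and 0.26 (adjusted p = 0.21).

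Among hepatocyte products, which these factors are known to drive, 15 of 16 listed names were on the array and 12 were kept. On polysomes 3 rose and none fell, with a median difference of -0.01. Afp, the fetal albumin-like protein, rose by 1.26 (adjusted p = 2.58e-06) from 6.50 ± 0.20 to 7.76 ± 0.23, and Ttr, a carrier of thyroid hormone, by 1.15 (adjusted p = 5.51e-07) from 8.54 ± 0.16 to 9.70 ± 0.16. Tat rose by 0.91 (adjusted p = 0.0217), and its call was lost without scramble polysomal array 2 or 3 (adjusted p = 0.0512 and 0.0592) or eIF6 shRNA polysomal array 4 (adjusted p = 0.0655). Apoc3 differed by -0.71 as the mean of its probes (adjusted p = 0.257), which differed by -1.37 and -0.06. The first of these, A_55_P2117155, was well above background on 2 of 4 scramble polysomal arrays and on no eIF6 shRNA polysomal array. Some products that define hepatocytes were near the limit in every group: Alb was well above background on 0, 3, 2 and 2 of 4 arrays (scramble subpolysomal, scramble polysomal, eIF6 shRNA subpolysomal, eIF6 shRNA polysomal), and Fgb on none.

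Of the bile acid genes, some of them known targets of Nr1h4 or Nr5a2, 14 were on the array and 7 were kept. Cyp7a1, the rate-limiting enzyme of bile acid synthesis, and Abcb11, Cyp8b1, Slc51a, Slc51b, Slco1b2 and Baat were well above background on no array. On polysomes 2 of the 7 rose and 1 fell, with a median difference of -0.08. Cyp27a1, which oxidises sterol side chains, rose by 1.62 (adjusted p = 8.83e-05) from 3.98 ± 0.18 to 5.60 ± 0.18, and Klb, the coreceptor of Fgfr4, by 1.35 (adjusted p = 0.0225), a call that was lost without scramble polysomal array 2 or 3 (adjusted p = 0.065 and 0.0714) or eIF6 shRNA polysomal array 3 or 4 (adjusted p = 0.0525 and 0.0676). Abcb4, the canalicular phospholipid transporter, fell by 1.17 (adjusted p = 1.88e-07) from 8.90 ± 0.10 to 7.73 ± 0.06. Nr0b2 (SHP), the classic target of Nr1h4, differed by 0.23 (adjusted p = 0.484).

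Markers of other liver cells moved unequally. Of 10 stellate cell and fibroblast markers 9 were kept, and 8 fell on polysomes and 6 in subpolysomal RNA with none rising, with median differences of -2.73 and -1.22. Col1a2 fell by 3.53 (adjusted p = 1.48e-08), Col1a1 by 3.11, Pdgfrb by 3.10 and Col3a1 by 2.96 on polysomes. The log2 of the summed signal of the list ran from 17.39 to 18.13 on scramble polysomal and from 14.82 to 15.48 on eIF6 shRNA polysomal arrays, and from 17.07 to 17.16 and 15.92 to 16.22 in subpolysomal RNA. Lrat, which defines stellate cells that store vitamin A, was well above background on no array. Their part in the rise of Onecut1, Foxa3 and Prox1 and in the Nr5a2 values was not tested. Of 8 cholangiocyte and progenitor markers 6 were kept. Of these, 1 rose on polysomes and 2 in subpolysomal RNA, and none fell in either. Spp1 rose by 0.84 in subpolysomal RNA (limma, adjusted p = 0.0244). On polysomes Epcam, Krt19 and Krt7 differed by 0.53, 0.52 and -0.28 (adjusted p = 0.717, 0.089 and 0.134). Epcam was well above background on 1 of 4 scramble and 3 of 4 eIF6 shRNA polysomal arrays. The summed signal of the 6 kept markers ran from 13.79 to 14.65 in scramble and from 14.00 to 14.75 in eIF6 shRNA polysomal RNA. In subpolysomal RNA it ran from 13.83 to 13.95 and from 14.14 to 14.34, where the groups did not overlap. Krt19 had the highest signal of the 6 and weighed most in this sum, and differed there by 0.38 (limma, adjusted p = 0.208). Epcam differed there by 0.39, and Krt7 and Sox9 by -0.30 and -0.20, none of them called. The part of the cholangiocyte and progenitor markers in the subpolysomal values of the factors was not tested. Of 6 macrophage markers on the array 4 were kept, with Ptprc, Cd68 and Emr1 at -0.68, 0.12 and 0.06 on polysomes. Csf1r alone was called (fell by 1.67 as the mean of its probes, adjusted p = 2.64e-07). Its 3 probes were unequal and ran from -2.52 to -0.05. Of 6 endothelial markers 2 were kept (Kdr and Pecam1), none was called and none had an unadjusted p under 0.05 in the limma model on polysomes. Cdh5, Stab2, Lyve1, Tek and Lyz2 were well above background on no array.

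**Figure D5:**
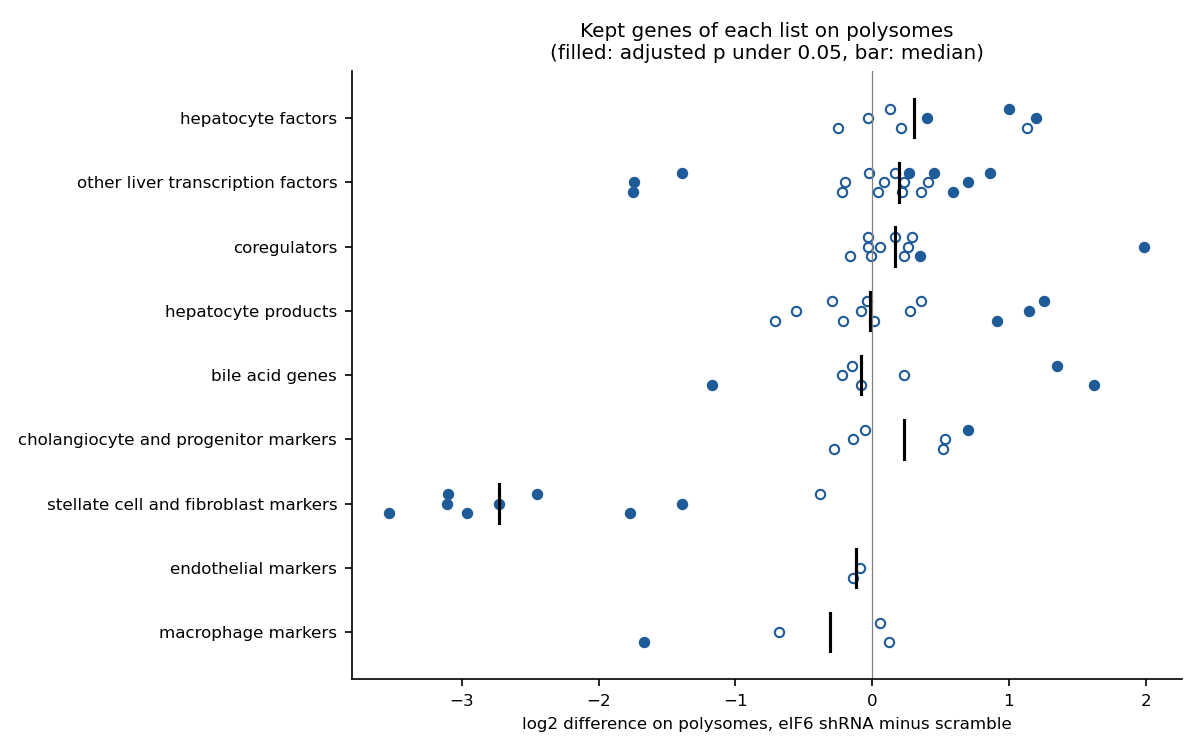
Log2 difference on polysomes, eIF6 shRNA minus scramble (x axis), of each kept gene of the 8 factors and of 8 other lists (y axis). Filled points passed an adjusted p of 0.05 and bars give the median of a list, 0.30 for the 8 factors and -2.73 for stellate cell and fibroblast markers.

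For the 6 factors well above background on all 16 arrays, the genes with the most similar profile were sought among 14555 genes, by Pearson's r over the 16 arrays, as a description. The 4 groups set most of these values, so a high r says little beyond a similar order of the groups. For Onecut1 these were Dtx4 (0.966), Afp (0.965) and Foxo6 (0.961), of which Afp is a hepatocyte product of the lists above. For Foxa3 they were Zic5 (0.947), Ntn4 (0.945) and Foxn1 (0.936). The profiles most like Hnf4a were those of Tomm70a, Tcea1 and Dek, and those most like Foxa1 were Trim37, Rnaseh2c and Gm11744. For Foxa2 they were 2700099C18Rik, Rlf and Simc1, and for Nr1h4 they were Ptpn23, Man2c1 and Sf3b3, with r from 0.958 to 0.992 over these 4 factors. Among the factors themselves r was 0.83 between Foxa2 and Nr1h4, -0.88 between Foxa1 and Foxa2 and 0.77 between Foxa3 and Onecut1.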

How the data were processed

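The authors deposited, for each of the 16 arrays, the Agilent Feature Extraction output with a background-corrected intensity per spot, not normalized between arrays, and a table of quantile normalized log2 signals of the same arrays (used as an alternative). The methods and processing notes name version 10.7.7.1, the file headers 10.7.3.1 (grid placement) and build mm9. Outlier spots were left out, repeated spots averaged, and the log2 intensities of 25260 probes that 2 or more arrays of any group had well above background were quantile normalized. The mean of the kept probes was the value of a gene (19365 genes). limma 3.58.1 in R 4.3.3 fitted 4 group means and gave 5 contrasts, with p-values adjusted by Benjamini-Hochberg over all genes and called at 0.05. The factors and lists were chosen with earlier results of these data known. Named genes were the 8 factors, Eif6, up to 4 kept genes per list with the largest polysomal difference, undetected defining genes, and the 3 most similar genes per factor. Beyond this rule, other called genes of a list were named after their values were seen. Probe-level fits and values relative to the median were added after seeing the data. The model was tested on simulated data. The number of arrays limits the precision, since arrays give no counting error. Exon and UTR annotation of the probes in build mm9 was not used here. A result of 1 gene of the lists is not reported here.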

Additional observations from a re-analysis of the deposited data

Results flagged for a closer look

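The lowest Foxa3 value among the scramble subpolysomal arrays, 6.09, lay far from the other 3 arrays of its group (6.35 to 6.38). Chance marks about 1 in 20 groups in this way, and it was 1 of 36 groups checked. Without that array the subpolysomal Foxa3 difference was 0.23 (adjusted p = 0.121). The eIF6 shRNA differences of 2 named genes differed between the fractions in limma's test of the polysomal minus the subpolysomal difference: Eif6, with -1.07 (adjusted p = 0.000145), and Col1a2, with -2.31 (adjusted p = 0.000791).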

How the results depend on the processing

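Under 11 other settings and with each of the 16 arrays left out, 77 results of the 8 factors, Eif6 and named genes gave 2095 values, of which 1942 kept direction and side of the threshold, 66 lost a call, 35 gained one and 52 turned sign. Where no cause follows from the setting itself, the cause was not tested.

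Spike-in scaling rested on 7 probes whose mean differed between arrays of a group by up to 1.42 on the log2 scale, and moved the median of all genes by -0.47 on polysomes and -0.23 in subpolysomal RNA. It left 0 factors called on polysomes and 0 in subpolysomal RNA (0 and 0 at an unadjusted p under 0.05), and over all genes 101 higher and 1056 lower on polysomes (from 2145 and 2073), 43 and 345 in subpolysomal RNA (from 2295 and 2394) and 2 and 31 for efficiency (from 78 and 214). Values turned on polysomes for Foxa1 (-0.27), Foxa3 (-0.066), Nr1h4 (-0.32) and Ncor1 (-0.11), in subpolysomal RNA for Foxa3 (-0.044), Nr1h4 (-0.11), Nr5a2 (-0.24) and Eif6 (-0.22), and for efficiency for Foxa3 (-0.022), Nr1h4 (-0.21) and Prox1 (-0.09). Between fractions it turned Foxa2 (0.53), Nr1h4 (1.28), Onecut1 (1.25) and Nr5a2 (0.76) in scramble and Foxa2 (0.69), Nr1h4 (1.07) and Onecut1 (1.43) in eIF6 shRNA cells.

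With each fraction normalized on its own, where fractions are not brought to a common scale, 8 factors were called between fractions in eIF6 shRNA cells. The same setting turned Foxa2 (0.42), Nr1h4 (1.15), Onecut1 (1.12) and Nr5a2 (0.63) in scramble and Foxa2 (0.78), Nr1h4 (1.17) and Onecut1 (1.51) in eIF6 shRNA cells. Between fractions 6137 genes were higher and 5501 lower in scramble and 6225 and 5553 in eIF6 shRNA cells, against 15786 and 899, and 15405 and 840, with separate normalization, 13414 and 396, and 11225 and 494, with spike-in scaling, and 8477 and 8914 lower with the 75th percentile (3988 higher in eIF6 shRNA cells). The 75th percentile turned Nr1h4 for efficiency (-0.021) and Foxa3 between fractions (-0.35 and -0.18). Efficiency calls were 408 lower with the 75th percentile, 130 higher and 340 lower with separate fractions, 177 and 390 with normexp, 142 lower with no filter, 49 and 139 without scramble polysomal array 1, and 47 higher without eIF6 shRNA polysomal array 3.

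Nr5a2 turned in subpolysomal RNA with no filter (-0.022), in the authors' log2 table (-0.025) and with probe A_55_P2142908 alone (-1.10), and between fractions of scramble cells with detection on all 4 arrays of a group (0.43), the brightest probe (0.52) and probe A_51_P514449 alone (0.52). Onecut1 between fractions of eIF6 shRNA cells turned with probe A_55_P1965456 alone (0.03).

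With single arrays left out, 2 to 4 factors were called on polysomes, 2 to 3 in subpolysomal RNA, 0 for efficiency, and 5 to 6 and 5 to 7 between fractions. Ranges that crossed 0 were those of Foxa2 on polysomes (-0.092 to 0.046), Nr5a2 (-0.35 to 1.30) and Eif6 (-0.028 to 0.057) in subpolysomal RNA, Hnf4a (-0.12 to 0.04), Nr1h4 (-0.039 to 0.17) and Prox1 (-0.005 to 0.51) for efficiency, and Nr5a2 between fractions of scramble cells (-0.69 to 0.62). Prox1 on polysomes also lost its call with the 75th percentile (adjusted p = 0.0651), no filter (0.208) and the authors' table (0.126), Foxa3 in subpolysomal RNA with the 75th percentile (0.17), separate fractions (0.0689) and no filter (0.0582), and Foxa2 there with the brightest probe (0.0549), which is A_55_P2134236. Foxa3 between fractions of eIF6 shRNA cells gained a call without scramble subpolysomal array 1 (0.0391) or scramble polysomal array 4 (0.023) and under 5 other settings.

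Replicate numbers did not pair the arrays: same-numbered arrays of different groups had deviations correlated by -0.16 to 0.41, over 0.1 in 2 of 16 comparisons, and 2 arrays correlated best with their own number. With the replicate block 3, 3, 0, 5 and 5 factors were called, as without it, but Foxa3 in subpolysomal RNA lost its call (adjusted p = 0.0528) and Prox1 there gained one (adjusted p = 0.0284). Signal over background limits Prox1 in subpolysomal RNA and the second Nr5a2 probe, and 4 arrays a group limit every interval.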
